A study of Homo sapiens with 2 samples.

Results

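The genes described here encode the nuclear subunits of respiratory complexes I, II and III. They were taken by symbol: protein-coding genes whose symbol starts NDUFA, NDUFB, NDUFC, NDUFS, NDUFV or UQCR, together with SDHA, SDHB, SDHC, SDHD and CYC1. Assembly factors named NDUFAF and pseudogenes were left out. Of 18518 genes listed in the data, 51 were members: 38 of complex I, 4 of complex II and 9 of complex III. All 51 were listed in both libraries. UQCRHL, a further gene that the symbols select, was listed in neither. The genes long known as NDUFA4 and NDUFA4L2 carry the symbols COXFA4 and COXFA4L2 in the RefSeq table used for names, and so were not members.

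The study set H1, a human embryonic stem cell line in wide use, beside H1 cells of genotype MEIS1-/-. MEIS1 is a homeodomain transcription factor that acts with HOX and PBX proteins. Cells of both genotypes were taken at day 3 of a stepwise differentiation towards blood, in which 40 ng/ml activinA with 50 ng/ml BMP4 for 2 days was followed by 40 ng/ml VEGF with 50 ng/ml bFGF for 2 days. There was 1 library per genotype, so no test between genotypes was possible, and each comparison is of 2 libraries. Paired values are given with the wild-type library first and the library labelled deleted second. The labels do not give the deleted part of MEIS1, the number of clones or the number of cultures.

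Complex I passes electrons from NADH through a flavin and a chain of iron-sulfur clusters to ubiquinone and pumps protons across the inner mitochondrial membrane. Complex II is succinate dehydrogenase, an enzyme of the citric acid cycle that also feeds electrons to ubiquinone and pumps no protons. Complex III takes electrons from reduced ubiquinone to cytochrome c. Complexes I and III also hold subunits encoded in mitochondrial DNA, whereas all subunits of complex II are nuclear. Pluripotent stem cells rely strongly on glycolysis, and differentiation of many lineages is accompanied by greater use of respiration.

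The wild-type library held 5202875 expected counts over 17562 genes and the library labelled deleted 5296440 over 17696. MEIS1 had 89 and 68 counts, a ratio whose counting interval included 1, so its level does not check the label. Cell markers differed between the libraries. The 6 haemato-endothelial markers (TAL1, LMO2, CDH5, PECAM1, CD34, RUNX1) were all higher in the library labelled deleted, with a summed level of 55.8 against 122 FPKM (fragments scaled for transcript length and library depth). All 4 pluripotency markers with enough counts were lower there, and the list of 5 summed to 620 and 489 FPKM. Of 6 compared primitive streak and mesoderm markers, 3 were higher and 3 lower, with sums of 487 and 499 FPKM. The 3 lower ones were EOMES (867 and 211 counts, 4.14-fold), MIXL1 (30 and 10, 2.85-fold) and TBXT (125 and 47, 2.66-fold). The 3 higher ones, KDR, HAND1 and PDGFRA, differed less, by 1.14-fold to 1.37-fold. Of 5 endoderm markers 3 were lower, with sums of 143 and 91.3 FPKM. Among 4 neuroectoderm markers, PAX6 and ZIC1 had at most 10 counts in either library and SOX1 was listed in neither. The sum of 120 and 115 FPKM came almost wholly from NES, a gene of many dividing progenitor cells. In bulk RNA, fewer cells of a type and less RNA per cell cannot be told apart.

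Subunit transcripts of the 3 complexes were near the same level in both libraries. The median log2 ratio of the library labelled deleted over wild type was 0.03 over the 51 members, with quartiles of -0.08 and 0.27 and a range of -0.46 to 0.67. The median of all 14381 genes compared, those with at least 10 counts in a library, was 0.0010, and that of the 8755 genes with at least 100 counts was 0.0098. Of the members, 29 had a ratio over 1 and 22 under 1. Summed over all members, counts were 10747 and 11480, a 1.06-fold ratio (1.03 to 1.08). Intervals here and below are exact Clopper-Pearson 95% intervals of the ratio of scaled counts, and they cover counting error only, not the spread between cultures.

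A member is called higher or lower where this interval excludes 1. By that rule 11 of 51 members, or 21.6%, were higher in the library labelled deleted and 1, or 1.96%, was lower. The background over all genes compared was 15.2% higher and 14.9% lower. Members are well counted, with 43 of 51 at 100 counts or more in a library, and among all such genes the background was 18.9% higher and 18.2% lower. All 11 higher members and the lower one were among these 43, while the shares of members given are over all 51. The share higher was thus only a little above the background of well-counted genes, and further above it among the 43 alone. Among genes of at most 1000 bases, the length of most members, 19.4% were higher and 9.29% lower. The share of members lower was under each of these backgrounds, and no difference was tested. Of members whose interval excludes 1, NDUFA5 was at least 1.5-fold higher and none was at least 1.5-fold lower, against 5.74% and 6.25% of all genes compared. Altogether 31 members, or 60.8%, had ratios within 1.2-fold in either direction, against 68.5% of genes with at least 100 counts. Those genes are better counted, with a median of 289 counts in wild type against 167 for the members. The shift in cell markers accompanied these differences, and its part in them was not tested.

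**Figure D1:**
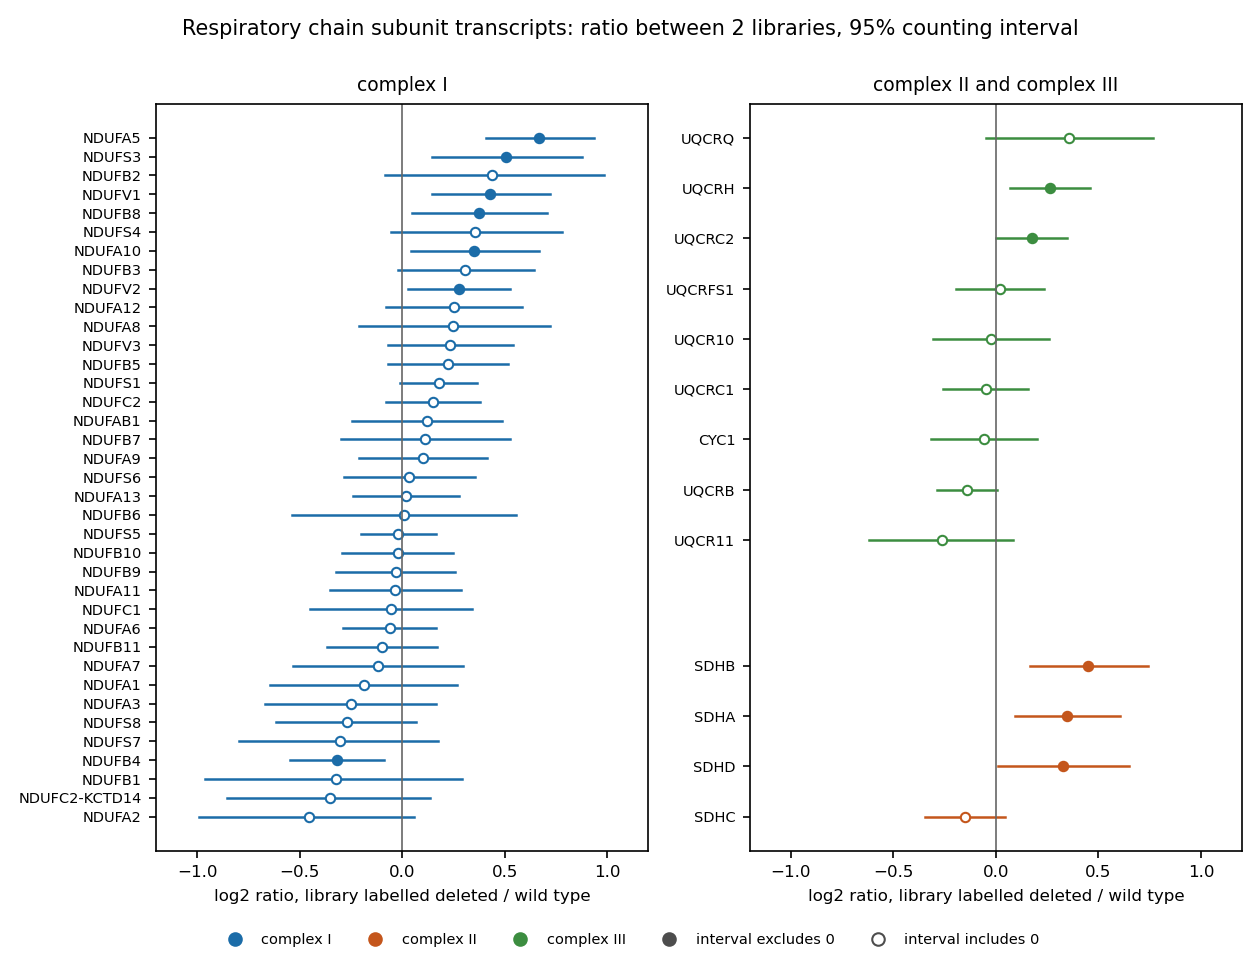
Log2 ratio of the library labelled deleted over wild type for 50 of the 51 members, complex I at left and complexes II and III at right, with exact 95% counting intervals as lines; filled points have an interval that excludes a log2 ratio of 0. Of the 50 points, 11 are filled to the right of 0 and 1, NDUFB4, is filled to the left.

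Levels are compared between genes in FPKM, which is per length. In the wild-type library they ran from 5.97 FPKM for NDUFA10 to 172 FPKM for NDUFS5, a 28.9-fold span, with a median of 31.5. In the library labelled deleted they ran from 5.19 FPKM for NDUFC2-KCTD14 to 178 FPKM for UQCRH, a 34.3-fold span, with a median of 32.8. NDUFC2-KCTD14 is a readthrough gene whose split of reads with NDUFC2 is uncertain. The highest members were NDUFS5 (172 FPKM in wild type and 169 in the other library), UQCRH (149 and 178), NDUFB4 (116 and 92.5) and NDUFA13 (89.9 and 90.5). NDUFS5 and NDUFB4 are accessory subunits of the complex I membrane arm, NDUFA13 is an accessory subunit also known as GRIM-19, and UQCRH is the hinge protein of complex III. The lowest were NDUFA10 (5.97 and 7.58 FPKM), NDUFC2-KCTD14 (6.64 and 5.19), UQCRQ (11.1 and 14.2) and NDUFB6 (13.2 in both). The order of members by level was therefore largely shared: across the 51 genes, log2 FPKM of the libraries had a Pearson r of 0.96, a description across genes that share libraries and lengths.

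**Figure D2:**
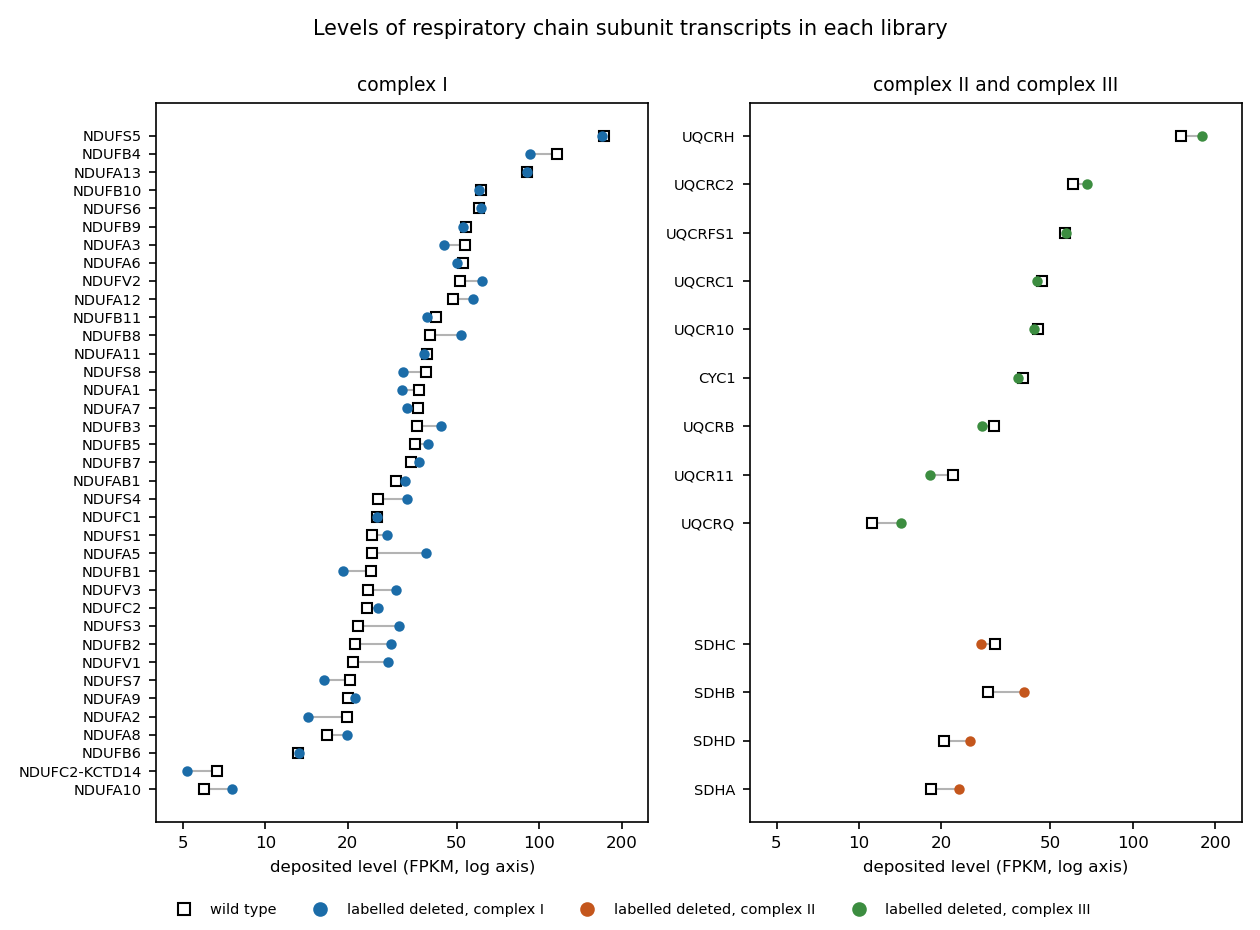
Deposited FPKM (log axis) of 50 of the 51 members in the wild-type library (open squares) and the library labelled deleted (filled circles), ordered by wild-type level within each complex. The paired symbols lie close together beside the spread between genes, which spans 28.9-fold in the wild-type library.

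Subunits of 1 complex, which are assembled in fixed proportions, thus did not have equal transcript levels in FPKM. Such levels depend on the deposited lengths. NDUFA10, the lowest in wild type, had 154 counts there, near the member median of 167. Its length was 4928 bases, against a member median of 937. The median member level in wild type and the library labelled deleted was 31.9 and 32.5 FPKM in complex I, 25 and 26.6 in complex II, and 45.0 and 43.6 in complex III. Complex II had the narrowest range, from 18.4 to 31.5 FPKM in wild type and from 23.2 to 40.1 FPKM in the other library. It also has the fewest members, and a range tends to widen with the number of genes. As a share of all counts the members made up 0.207% (0.203 to 0.210, exact binomial 95% interval) and 0.217% (0.213 to 0.221).

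Stretches of promoter are shown for the members whose interval excludes 1, that hold 1 of the motifs searched in the 100 bases before the start site, and where that stretch overlaps no other gene. The sequences are from RefSeq on GRCh38.p14, 5′ to 3′ on the gene's strand, and capitals mark the motif on either strand. The motifs were CGCANGCG, the core of the NRF1 site, and CCGGAAG, bound by ETS factors such as GABPA. NRF1 and GABPA are known activators of many nuclear genes of the respiratory chain. NDUFB4, the only lower member, is at chr3:120596236-120596335, and the others, all higher, are NDUFS3 at chr11:47578974-47579073, SDHA at chr5:218220-218319 and SDHD at chr11:112086773-112086872, each on the plus strand.
NDUFB4: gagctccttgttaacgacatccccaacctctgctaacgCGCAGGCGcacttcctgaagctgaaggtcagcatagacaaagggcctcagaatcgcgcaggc
NDUFS3: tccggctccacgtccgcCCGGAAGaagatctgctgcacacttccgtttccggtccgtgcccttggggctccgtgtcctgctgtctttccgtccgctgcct
SDHA: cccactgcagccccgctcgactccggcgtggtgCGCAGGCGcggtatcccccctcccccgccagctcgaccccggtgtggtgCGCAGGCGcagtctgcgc
SDHD: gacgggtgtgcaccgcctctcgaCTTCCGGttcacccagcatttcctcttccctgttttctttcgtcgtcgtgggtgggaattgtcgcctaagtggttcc
The lower member and a higher one, SDHA, thus both hold the NRF1 core. It starts 62 bases before the start site in NDUFB4, and 67 and 18 bases before it in SDHA. The ETS motif starts 83 bases before the start site in NDUFS3 and 77 in SDHD.

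Motifs were then counted over the whole table of promoter windows, from 250 bases before to 50 after a start, on both strands. A window was given for 43 of 51 members, and those without included CYC1, NDUFB5, NDUFB9, NDUFC2, NDUFS5, SDHC and UQCRB. The NRF1 core was in 18 of 43 members, or 41.9%, against 12% of all 27305 genes with a window and 21.5% of protein-coding genes compared. ATGGCG, the core of the YY1 site, was in 22 members, or 51.2%, against 12.7% and 21.3%. The ETS motif was in 10 members, or 23.3%, against 12.2% and 21.6%. Members thus held the NRF1 and YY1 motifs more often than the other sets, and the ETS motif about as often as protein-coding genes compared. By complex, the NRF1 core was in 12 of 33 members of complex I, 2 of 3 of complex II and 4 of 7 of complex III. Each motif was found on members of both kinds: the NRF1 core was in 3 of 11 higher members and 14 of 31 whose interval included 1, the ETS motif in 4 and 6, and the YY1 motif in 6 and 16. A match is a run of letters and no evidence of binding.

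In complex I, 6 of 38 members (15.8%) were higher in the library labelled deleted and NDUFB4 (2.63%) was lower. Over all genes compared, 15.2% were higher and 14.9% lower. The median log2 ratio was 0.07, and summed counts were 6564 and 7076, a 1.07-fold ratio (1.03 to 1.10). From FPKM, which weights short members more, the log2 ratio of the sum was 0.04, against 0.09 from counts. The 7 core subunits encoded in the nucleus carry the flavin, the iron-sulfur clusters and the quinone site. Of these 3 were higher and none lower. Summed counts of the core were 1455 and 1664, 1.13-fold (1.05 to 1.21). Among the 31 accessory genes 3 were higher and 1 lower, the median log2 ratio was 0.02, and the sum was 1.05-fold (1.01 to 1.09). The 31 include the readthrough gene NDUFC2-KCTD14, which shares exons with NDUFC2. The difference between core and accessory subunits was not tested.

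Of the 3 core subunits that oxidise NADH, 2 were higher. NDUFV1, which binds NADH and the flavin, had 176 and 240 counts, 1.35-fold higher (1.10 to 1.65). NDUFV2, an iron-sulfur subunit next to it, had 244 and 299 counts, 1.21-fold higher (1.02 to 1.44). NDUFS1, the large iron-sulfur subunit, had 444 and 508 counts, and its interval included 1 (0.993 to 1.29). Summed over these 3 genes, counts were 864 and 1047, 1.2-fold higher (1.09 to 1.31).

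Among core subunits of the part that hands electrons to ubiquinone, NDUFS3 was higher. It had 107 and 154 counts, 1.42-fold higher (1.10 to 1.84). NDUFS7 and NDUFS8, which carry the last iron-sulfur clusters before ubiquinone, had 82 and 67 counts and 160 and 134 counts, and both intervals included 1 (0.576 to 1.13 and 0.653 to 1.05).

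NDUFA5, an accessory subunit of the matrix arm, had the highest ratio of all members. It had 195 and 314 counts (24.4 and 38.6 FPKM), 1.59-fold higher (1.33 to 1.91). NDUFB8, an accessory subunit of the membrane arm, had 137 and 180 counts, 1.30-fold higher (1.03 to 1.63). NDUFA10, the lowest member by FPKM in wild type, had 154 and 199 counts, 1.28-fold higher (1.03 to 1.59). NDUFB4, of the membrane arm, had 356 and 289 counts, 1.25-fold lower (1.06 to 1.46). These 4 were the accessory subunits whose intervals excluded 1.

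The other 27 accessory genes, NDUFC2-KCTD14 among them, had intervals that included 1. In the NDUFA series, counts were 89 and 79 for NDUFA1, 75 and 55 for NDUFA2, 107 and 91 for NDUFA3, 323 and 313 for NDUFA6, and 104 and 97 for NDUFA7. They were 73 and 88 for NDUFA8, 167 and 181 for NDUFA9, 166 and 164 for NDUFA11, 141 and 170 for NDUFA12, and 247 and 253 for NDUFA13. NDUFAB1, the mitochondrial acyl carrier protein, had 121 and 133 counts. NDUFA2 had the lowest log2 ratio of any member, -0.46, yet its few counts left an interval of 0.502 to 1.04.

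In the NDUFB series, whose products lie in the membrane arm, counts were 51 and 41 for NDUFB1, 53 and 73 for NDUFB2, 138 and 173 for NDUFB3, 182 and 215 for NDUFB5, and 58 and 59 for NDUFB6. They were 96 and 105 for NDUFB7, 200 and 198 for NDUFB9, 228 and 227 for NDUFB10, and 238 and 225 for NDUFB11. NDUFB1 had the fewest counts of all members. NDUFB2 shares its locus with the antisense gene NDUFB2-AS1, which had 7 and 11 counts, and whether counting used strand is not stated in the labels. Counts were 87 and 113 for NDUFS4, 496 and 495 for NDUFS5, 164 and 170 for NDUFS6, 167 and 199 for NDUFV3, and 111 and 108 for NDUFC1. NDUFS5, the most abundant complex I transcript by FPKM, thus differed by less than counting error.

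NDUFC2 and the readthrough gene NDUFC2-KCTD14 share exons, and their expected counts were not whole, as happens where reads are divided between genes. NDUFC2 had 304 and 341 counts and NDUFC2-KCTD14 had 81 and 64. Their ratios lay on opposite sides of 1, and both intervals included 1. Summed, they had 385 and 405 counts, 1.04-fold (0.902 to 1.2), so the split between the genes is uncertain while the sum was near equal.

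In complex II, 3 of 4 members were higher in the library labelled deleted, a share that rests on few genes. The background was 15.2% of all genes compared and 18.9% of those with at least 100 counts. SDHB, the iron-sulfur subunit, had 175 and 242 counts, 1.36-fold higher (1.12 to 1.67). SDHA, the flavoprotein that oxidises succinate, had 229 and 295 counts, 1.27-fold higher (1.07 to 1.52). SDHD, a membrane anchor that helps bind heme and ubiquinone, had 148 and 188 counts, 1.25-fold higher (1.01 to 1.57). SDHC, the other anchor, had 463 and 422 counts, and its interval of 0.787 to 1.03 included 1. Both catalytic subunits and 1 of the anchors were thus higher.

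The median log2 ratio of complex II was 0.34, and summed counts were 1015 and 1147, 1.12-fold higher (1.03 to 1.22). The counts of SDHA and SDHD were not whole by the rule used, although those of SDHD, 148.01 and 188.02, missed it narrowly. Without SDHA and SDHD the median was 0.15. The log2 ratio of the sum was then 0.04 (-0.12 to 0.20), an interval that included 0. SDHA has near-identical pseudogene copies, SDHAP1 to SDHAP4, with 200 and 210 counts in all. SDHA summed with these copies had 429 and 505 counts, 1.16-fold higher (1.02 to 1.33), so the call was kept at a smaller size when reads split between the copies were put together.

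In complex III, 2 of 9 members (22.2%) were higher and none was lower, against 15.2% and 14.9% of all genes compared. UQCRH, the acidic hinge protein that helps cytochrome c dock, had 401 and 487 counts, 1.2-fold higher (1.05 to 1.37). UQCRC2, a core protein on the matrix side, had 521 and 595 counts, 1.13-fold higher (1.002 to 1.27), which lies at the edge of the rule and was not called when total counts replaced TMM scaling. UQCRC1, its partner core protein, had 393 and 384 counts.

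The redox subunits of complex III had intervals that included 1. CYC1, cytochrome c1, had 251 and 244 counts, and UQCRFS1, the Rieske iron-sulfur protein, had 354 and 363. Among small subunits, counts were 213 and 212 for UQCR10, 151 and 127 for UQCR11 and 91 and 118 for UQCRQ. UQCRB, which lies near a quinone site, had 793 and 727 counts, the most of any member, and its interval of 0.818 to 1.003 just included 1. With total counts in place of TMM it was called lower. The median log2 ratio of complex III was -0.02, and the sum was 3168 and 3257 counts, 1.02-fold (0.967 to 1.07).

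Depth set how small a difference could be seen. The half-width of the interval had a median of 0.31 on the log2 scale, from 0.15 to 0.63. All 51 intervals lay within 2-fold in both directions, and 29 lay within 1.5-fold. Differences of 1.2-fold were thus not detectable at this depth in many members.

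Members are mostly short transcripts, and the ratio between the libraries varied with length over all genes. Among genes with at least 100 counts, the median log2 ratio was 0.13 up to 500 bases, 0.10 from 500 to 1000 bases, 0.04 from 1000 to 1500, and -0.02 over 5000. Members did not follow that order: the 28 of at most 1000 bases had a median of -0.0064, with 4 higher and 1 lower, and the 23 longer ones a median of 0.15, with 7 higher and none lower. Among all 721 genes compared of at most 1000 bases, 19.4% were higher and 9.29% lower, with a median of 0.08. Across the 51 members, Spearman's rho of ratio with length was 0.16 and with wild-type FPKM -0.20, given as descriptions across genes of the same 2 libraries.

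**Figure D3:**
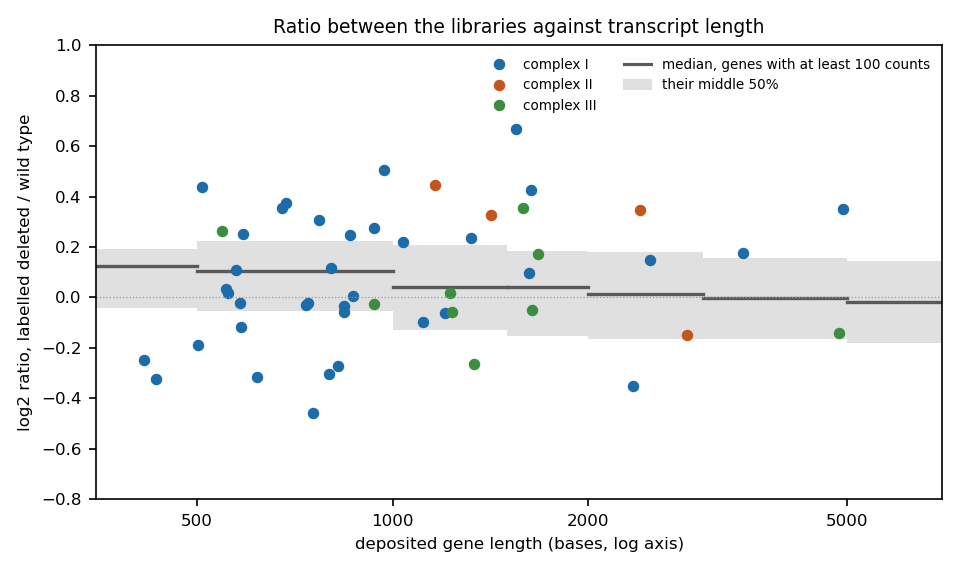
Log2 ratio of 50 of the 51 members (points, coloured by complex) against their deposited length in bases (log axis), over the median (dark lines) and middle 50% (grey) of genes with at least 100 counts in each length range. The medians of all genes fall from 0.13 in the shortest range to -0.02 in the longest, while short and long members lie on both sides of 0.

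The deposited length of a gene is weighted by the abundance of its transcripts, so a change in it is a change in the estimated mix. Of the members, 31 had 1 transcript in the tables and 20 had several, and the length differed by over 3% in 3. NDUFV3, a flavoprotein-fraction subunit with a long and a short form, went from 1365 bases in wild type to 1274 in the library labelled deleted. NDUFC1 went from 858 to 823 bases and NDUFB5 from 1019 to 1053. For NDUFV3 the log2 ratio was 0.23 from counts and 0.34 from FPKM, the latter being per length. No error was given for these estimates.

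Other genes of respiration were read from lists of 9 groups. Complex IV, the next enzyme in the chain, had 1 of 13 compared subunits higher, COX7B (204 and 256 counts, log2 ratio 0.31), and 1 lower, COX8A (170 and 123, -0.48). Its median log2 ratio was -0.03. ATP synthase had 4 of 18 higher, among them ATP5MK (212 and 268 counts, 0.32), and 1 lower, the inhibitor ATP5IF1 (347 and 290, -0.28), with a median of 0.11. The member with the highest ratio, ATP5MC1 (78 and 104 counts, 0.39), had an interval that included 1. None of the 13 subunits encoded in mitochondrial DNA was listed in either library, so the mitochondrial part of complexes I and III is not described.

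Of 20 complex I assembly factors 2 were higher and 2 lower, with a median of 0.06. NDUFAF1, an early assembly factor, had 72 and 39 counts (-0.88) and was lower, although its counts were not whole. NUBPL, which delivers iron-sulfur clusters to complex I, had 72 and 101 counts (0.47) and was higher. Of 12 assembly factors of complexes II and III, TTC19 (216 and 271 counts, 0.31) was higher and UQCC5 (18 and 7) was lower, the latter named after its values were seen, and the median was 0.08. BCS1L, which inserts the Rieske protein into complex III, had 53 and 70 counts (0.38) and an interval that included 1. The shares called, 10% in each direction in the first list and 8.33% in the second, were under the background of 15.2% higher and 14.9% lower.

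Iron-sulfur cluster assembly had 1 of 14 higher and 1 lower, with a median of 0.16. NFS1, the cysteine desulfurase that supplies the sulfur, was the lower one, with 82 and 56 counts (-0.56), and FDXR (88 and 109, 0.29) had an interval that included 1. Coenzyme Q synthesis with cytochrome c had 3 of 14 higher and 1 lower, with a median of 0.06. COQ5, a methyltransferase of the pathway, had 84 and 131 counts (0.62) and was higher, as were PDSS2 (72 and 101, 0.47) and cytochrome c itself, CYCS (945 and 1207, 0.34). The lower one was COQ10A (46 and 19), and both it and CYCS were named after their values were seen. In the citric acid cycle 3 of 14 were higher and 1 lower, with a median of 0.07. IDH2, the NADP-dependent isocitrate dehydrogenase, had 292 and 468 counts (0.66) and DLD, a shared dehydrogenase subunit, 411 and 539 (0.37).

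Of 15 regulators of mitochondrial biogenesis 4 were higher and 1 was lower, with a median of 0.03. The estrogen-related receptors, nuclear receptors that act on respiratory genes, went in opposite directions: ESRRA had 61 and 95 counts (0.61) and was higher, and ESRRG had 84 and 44 (-0.93) and was lower. The factors whose motifs were counted above had intervals that included 1, with 106 and 100 counts for NRF1, 470 and 421 for GABPA and 597 and 610 for YY1. In each of the 8 lists with compared genes, median log2 ratios lay between -0.03 and 0.16, and the shares higher ran from 7.14% to 26.7% against 15.2% of all genes compared.

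**Figure D4:**
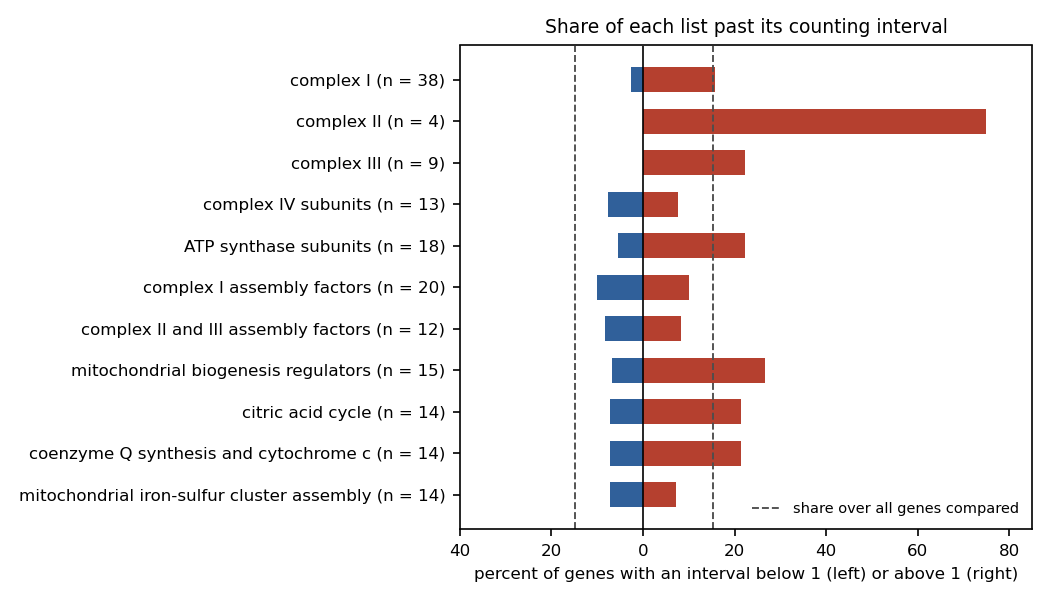
Percent of the compared genes of each complex or list whose counting interval lay above 1 (right) or below 1 (left) in the library labelled deleted relative to wild type, with the number compared in brackets and dashed lines at the shares over all genes compared, 15.2% and 14.9%. Complex II has 75% above, which is 3 of 4 genes, and no list exceeds 14.9% below.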

How the data were processed

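RNA was sequenced from 2 libraries, 1 per genotype, made from 2 µg of total RNA per the labels. The authors deposited expected counts (estimates in which a read may be divided between genes), FPKM values and a transcript-weighted length per gene, per the file headers. The submitters' processing notes name BWA, Bowtie, RSEM and hg19, without versions, while the series' design text names TopHat, Cufflinks and BWA with ANOVA. The columns have RSEM's layout, and which account applies to these tables is not given in the sources used here. Expected counts were rounded to whole numbers, and genes missing from a table were taken as 0. Gene numbers were matched to a RefSeq table of GRCh38.p14, 18413 of 18518, and the rest held 0.181% and 0.193% of counts. Counts were whole, within 0.005, for all but 9 members. They were scaled by TMM (edgeR 4.0.16, R 4.3.3), which gave a factor of 1.01, and ratios on the log2 scale used a pseudocount of 1. Genes with at least 10 counts in a library were compared, which all 51 members passed. Intervals were exact Clopper-Pearson 95% intervals conditional on the sum (scipy 1.17.1), which cover no more than counting error, and PCR duplicates may make even that too small. Ratios and intervals were tested on simulated counts with counting error only and a known scaling factor. That test does not cover spread between cultures, divided reads or an estimated factor. With 1 library per group no p-value was computed.

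The values of 1 member are not reported here, although it is counted in the totals. The members, lists and rules were chosen with earlier results of these data known. Named in full are members whose interval excludes 1, the 4 highest and lowest by FPKM, complex II and genes that share reads, and for each other list the 2 largest ratios among genes with at least 50 counts. Alternatives changed the scaling, pseudocount, count minimum, unit, rounding, treatment of shared reads, membership and fold.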

Additional observations from a re-analysis of the deposited data

How the results depend on the processing

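Of 653 values of single members under the alternatives, 652 kept their sign. The exception was NDUFB6, whose log2 ratio of 0.0073 became -0.001 with total counts in place of TMM. Of the 602 values with an interval, 598 kept their side of the interval rule, and the 51 from FPKM have none. Much of this agreement was fixed in advance. Leaving out or adding other members leaves a gene's own ratio as it was, and the pseudocount does not enter the interval. UQCRC2 (log2 ratio 0.17) lost its call and UQCRB (-0.15) gained one, both with total counts in place of TMM and with a minimum of 50 counts, so that 2 members had an interval below 1 under either. Counting members whose interval excludes 1 and whose ratio reaches the threshold, 9 were higher and 1 was lower at 1.2-fold, and 0 were higher at 2-fold. From FPKM with a pseudocount of 1 the log2 ratio of the complex I sum was 0.0369. Without members whose counts were not whole, the complex II median was 0.1487 and its sum 0.0404. The other 137 of 145 summary values stayed close, and the number of members above 1 ran from 9 to 11. Counting NDUFA4 as a member was chosen after seeing the data. It could change no call of another member, since each call rests on that gene's own counts. The scalings moved the median of all genes between -0.0074 and 0.0061. No paired analysis was possible because each genotype had 1 library, and for the same reason no library could be left out.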

Other observations

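The pseudogene copies of SDHA did not share a direction. With the wild-type library first, SDHAP2 had 41 and 77 counts, 1.84-fold higher (1.25 to 2.78), and SDHAP1 had 39 and 59, with an interval that included 1. SDHAP4 had 84 and 59 counts, 1.43-fold lower (1.02 to 2.05), and SDHAP3 had 36 and 15, 2.34-fold lower (1.30 to 4.78). None of these counts was whole, so the split of reads between the copies and SDHA is uncertain. COXFA4, long known as the complex I subunit NDUFA4 and now placed in complex IV, had 356 and 347 counts. COXFA4L2, its hypoxia-induced relative, had no row in the wild-type table, which was taken as 0, and had 1 count in the other library.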
